A study of Mus musculus with 14 samples.

Results

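Medium spiny neurons are the projection neurons of the striatum, and 35 genes known to be enriched in them were followed across the ischemic and contralateral hemispheres of wild-type and cortistatin-deficient mice. The genes were chosen by symbol as known genes of this cell type, without a threshold on expression, but with earlier results of these data known. Counts of them beside the share of all genes are thus a description and no independent test. All 35 were found among the 46904 genes measured, and all 35 were above 0 in at least 2 libraries, the filter that left 46102 genes for testing. They comprise 6 genes of the direct pathway (Drd1, Tac1, Pdyn, Isl1, Ebf1 and Chrm4), 6 of the indirect pathway (Drd2, Adora2a, Penk, Gpr6, Gpr52 and Six3), the dopamine receptor gene Drd3, 11 signalling genes, 5 transcription factor genes and 6 genes of membrane, cytoskeletal and other proteins. Values are RPKM, the reads of a gene scaled to its length and to the size of the library, so that levels may be compared between genes.

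The study sequenced polyadenylated RNA from whole brain hemispheres of male mice on a C57BL/6J background, 12 weeks old, collected 48 h after a transient occlusion of the left middle cerebral artery (MCAO) of 20 min by a filament. The 14 libraries fall into 4 groups: Cort+/+ contralateral (CL, 3 libraries), Cort+/+ MCAO (3 libraries, numbered 2 to 4 in the labels), Cort-/- CL (3 libraries) and Cort-/- MCAO (5 libraries). Cort-/- mice lack cortistatin, a neuropeptide related to somatostatin, and Cort+/+ mice are the wild type. The CL libraries come from the opposite hemisphere of operated mice, since no sham-operated or unoperated mouse is among the samples, so all 4 groups share the surgery. The study calls the replicates independent biological replicates, and the labels do not say which CL and MCAO hemispheres belonged to the same mouse. A hemisphere holds cortex, hippocampus, thalamus and other regions beside the striatum, and in such bulk tissue fewer cells of a type and less RNA per cell cannot be told apart.

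Spiny neurons form parallel output routes of the basal ganglia. Direct pathway neurons carry the D1 dopamine receptor, send their axons to the substantia nigra and the internal pallidum, and make substance P and dynorphin, whereas indirect pathway neurons carry the D2 dopamine receptor and the A2a adenosine receptor, send their axons to the external pallidum and make enkephalin. D1 and A2a receptors raise cyclic AMP through the G protein Golf and adenylyl cyclase 5, D2 receptors lower it, and DARPP-32 and cyclic nucleotide phosphodiesterases act downstream. The striatum lies within the territory of the middle cerebral artery.

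Promoter sequences of Drd1 and Tac1, of the direct pathway, and of Drd2 and Gpr6, of the indirect pathway, are shown because these genes stand for the comparison between the pathways and their windows hold a motif that was searched. The sequences are RefSeq windows on build GRCm38.p6, from 250 bases before to 50 bases after a transcription start, written 5′ to 3′ on the strand of the gene, and the capitals mark the motif. The Drd1 window is chr13:54054731-54055030 (minus strand), that of Tac1 chr6:7554811-7555110 (plus strand), that of Drd2 chr9:49340153-49340452 (plus strand) and that of Gpr6 chr10:41072241-41072540 (minus strand).
Drd1: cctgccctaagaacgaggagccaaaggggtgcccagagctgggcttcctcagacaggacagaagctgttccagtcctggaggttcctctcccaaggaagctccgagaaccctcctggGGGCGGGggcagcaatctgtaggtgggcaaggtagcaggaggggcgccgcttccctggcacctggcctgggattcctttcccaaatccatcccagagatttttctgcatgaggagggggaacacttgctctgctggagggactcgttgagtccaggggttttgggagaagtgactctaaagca
Tac1: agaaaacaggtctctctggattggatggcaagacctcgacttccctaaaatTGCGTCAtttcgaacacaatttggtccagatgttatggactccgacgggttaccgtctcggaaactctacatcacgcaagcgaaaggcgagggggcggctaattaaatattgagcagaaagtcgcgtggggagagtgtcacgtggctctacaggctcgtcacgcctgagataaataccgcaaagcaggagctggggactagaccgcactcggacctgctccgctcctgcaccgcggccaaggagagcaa
Drd2: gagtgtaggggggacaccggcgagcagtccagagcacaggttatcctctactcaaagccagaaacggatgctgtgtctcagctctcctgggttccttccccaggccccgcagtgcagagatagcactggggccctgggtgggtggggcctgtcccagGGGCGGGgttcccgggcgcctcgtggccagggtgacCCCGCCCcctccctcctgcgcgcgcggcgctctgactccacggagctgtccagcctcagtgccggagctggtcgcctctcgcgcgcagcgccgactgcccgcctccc
Gpr6: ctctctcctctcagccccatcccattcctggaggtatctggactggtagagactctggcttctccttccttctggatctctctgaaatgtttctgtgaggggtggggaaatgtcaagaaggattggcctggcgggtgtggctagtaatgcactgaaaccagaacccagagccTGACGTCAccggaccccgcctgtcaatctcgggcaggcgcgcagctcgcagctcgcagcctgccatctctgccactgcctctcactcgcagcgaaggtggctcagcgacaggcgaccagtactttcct

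Motifs were searched on both strands of the 46 windows that RefSeq gave for 27 of the 35 genes. The cyclic AMP response element TGACGTCA, bound by CREB, was found in 1 of the 46 windows, that of Gpr6, with its first base at −78 from the start site, and 1.79% of all 32851 windows hold it. Its variant TGCGTCA was present in 3 of the 46 windows, 1 each of Tac1, at −199, Isl1 and Arpp21, and in 2.12% of all windows. The GC box GGGCGGG occurred in 11 of the 27 genes, among them Drd1, at −133, and Drd2, at −93 and −57. By windows, 12 of the 46 of these genes hold a GC box, near the 25.6% of all windows. A match gives only that these letters are present in the window.

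The libraries matched their genotype labels, with 64 to 139 Cort reads in the 6 Cort+/+ libraries and 0 to 4 in the 8 Cort-/- libraries. Depth ranged from 25991112 to 43034545 reads on genes. Snap25, a synaptic gene of all neurons, lay at 744 to 1213 RPKM and Slc17a7, the vesicular glutamate transporter gene of cortical neurons, at 322 to 410, as in tissue that holds far more than striatum. The striatal genes were present at 0.517 (Drd3) to 152 RPKM (Penk), as means of the 6 CL libraries. The median of all tested genes differed between MCAO and CL by 0.00 on the log2 scale in both genotypes.

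After MCAO, the mean of all 35 striatal genes was lower in Cort-/- mice, and that of 34 of them in Cort+/+ mice. The MCAO mean was 54.4% (Sh3rf2) to 135% (Drd3) of the CL mean in Cort+/+ mice, with a median of 75.0% over the 35 genes, and 42.1% (Sh3rf2) to 94.8% (Ebf1) in Cort-/- mice, with a median of 64.2%. Tests were made with limma on log2(RPKM + 0.1) across all 46102 genes, with Benjamini-Hochberg adjusted p under 0.05 as the threshold. Over both genotypes together, weighted equally, 27 of the 35 genes fell and none rose, against 0.902% of all tested genes that fell. The median log2 fold change of the 35 genes was −0.52, and that of all tested genes was 0.00. The 8 genes that did not pass were Chrm4, Pdyn, Isl1, Ebf1, Six3, Drd3, Gnal and Ptpn5. Without 1 of the 14 libraries at a time, 20 to 29 of the 35 genes passed.

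Within Cort-/- mice 19 of the 35 genes fell, against 0.382% of all tested genes. Their median log2 fold change was −0.64, and 33 were lower at an unadjusted p under 0.05, as 6.05% of all tested genes were. The count of 19 depended on single libraries: it was 0 without CL replicate 1 (32 genes at an unadjusted p under 0.05), 7 without CL replicate 2, 2 without CL replicate 3, 7 without MCAO replicate 1, 8 without MCAO replicate 2, 5 without MCAO replicate 4, 10 without MCAO replicate 5 and 26 without MCAO replicate 3. In Cort+/+ mice none of the 35 genes passed in limma, where 0.00217% of all tested genes fell, although 26 of them were lower at an unadjusted p under 0.05, against 2.99% of all tested genes, and their median log2 fold change was −0.42. Those 26 became 15 without MCAO replicate 3 and 31 without MCAO replicate 4. With voom on whole reads recovered from the RPKM values, 3 genes fell in Cort+/+ mice (Lrrc10b, Rasd2 and Scn4b), against 0.0195% of all tested genes. With voom limited to genes of a mean of at least 0.5 RPKM, none of the 35 passed (27 at an unadjusted p under 0.05). In the fit of RPKM values without MCAO replicate 4, 3 genes fell (Drd1, Lrrc10b and Scn4b), against 0.013% of all tested genes. The study's own edgeR test on counts did call some of the 35 genes lower in Cort+/+ mice, as named under the processing.

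Ranges of the groups gave a similar picture. In Cort+/+ mice, all 3 MCAO libraries lay below all 3 CL libraries for 24 of the 35 genes, against 4.11% of all tested genes. For Cort-/- mice this held for 31 of the 35, against 4.27%. Ebf1, Chrm4, Drd3 and Ptpn5 overlapped there. All 8 MCAO libraries lay below all 6 CL libraries for 19 of the 35 genes, against 0.651%.

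**Figure D1:**
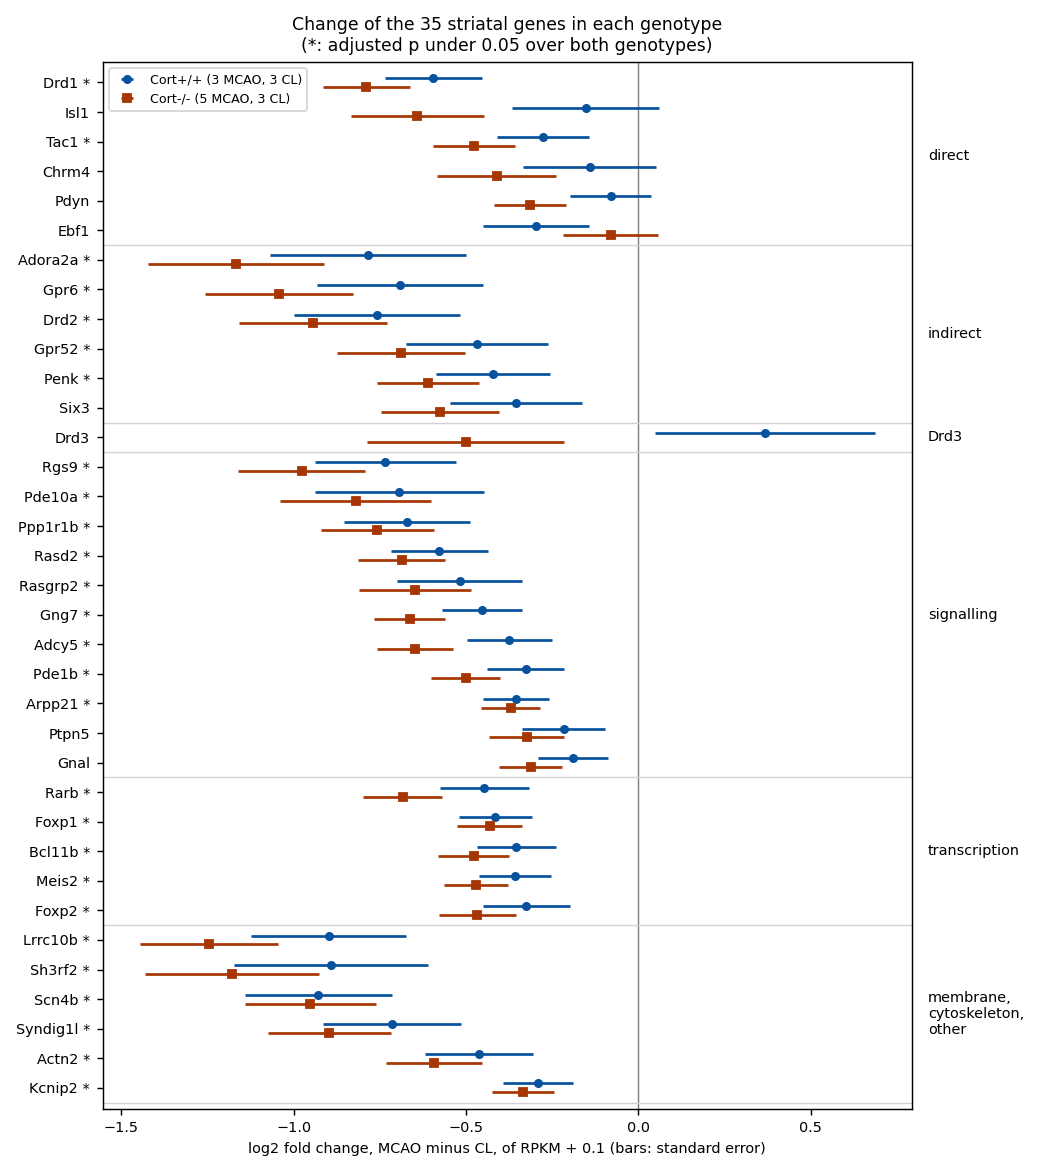
Log2 fold change (MCAO minus CL, of RPKM + 0.1, x axis) of each of the 35 genes, with Cort+/+ as blue circles and Cort-/- as brown squares, bars showing the standard error of the limma fit and asterisks the 27 genes with an adjusted p under 0.05 over both genotypes. All points lie left of 0 except Drd3 in Cort+/+ mice, at 0.37.

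Among the direct pathway genes, the D1 receptor gene Drd1 (chr13:54204872-54209760 on GRCm39) and Tac1, the precursor gene of substance P (chr6:7554120-7565834), fell over both genotypes. Drd1 stood at 12.5, 13.2 and 12.3 RPKM in the Cort+/+ CL libraries and 8.19, 6.88 and 10.3 in the Cort+/+ MCAO libraries, and at 13.7, 11.2 and 11.4 RPKM in Cort-/- CL against 5.92, 7.04, 7.64, 6.19 and 7.96 in Cort-/- MCAO. Every MCAO library was below every CL library, and the log2 fold change was −0.69 ± 0.09 (SE, limma adjusted p = 0.00237). Tac1 was at 30.1, 28.05 and 31.5 RPKM in Cort+/+ CL and 23.3, 21.8 and 29.4 in Cort+/+ MCAO, where the highest MCAO library lay within the CL range. In Cort-/- mice Tac1 was at 27.7, 29.2 and 26.4 RPKM in CL and 17.9, 19.2, 23.9, 16.6 and 22.9 in MCAO, with no overlap. Its log2 fold change over both genotypes was −0.38 ± 0.09 (limma adjusted p = 0.0383), and the adjusted p was above the threshold, at 0.0511 to 0.108, in 11 of the 14 fits that left out 1 library, the exceptions being the fits that omitted Cort+/+ MCAO replicate 4 or Cort-/- MCAO replicates 3 or 5.

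The other 4 direct pathway genes did not pass over both genotypes. Pdyn, the dynorphin precursor gene (chr2:129528469-129541945), was at 19.0, 16.5 and 17.8 RPKM in Cort+/+ CL, 17.1, 14.99 and 18.5 in Cort+/+ MCAO, 17.2, 20.4 and 17.1 in Cort-/- CL and 12.6, 15.6, 17.0, 12.9 and 15.4 in Cort-/- MCAO. Its groups overlapped in Cort+/+ mice, and the log2 fold change over both genotypes was −0.20 ± 0.08 (limma adjusted p = 0.243). Isl1 (chr13:116434817-116446235) encodes a LIM-homeodomain factor of direct pathway neurons that cholinergic interneurons make too. It was at 1.74, 1.78 and 1.29 RPKM in Cort+/+ CL, 1.39, 1.23 and 1.67 in Cort+/+ MCAO, 1.49, 1.65 and 1.51 in Cort-/- CL and 1.13, 1.12, 0.933, 0.581 and 1.15 in Cort-/- MCAO. For Isl1 the Cort+/+ groups overlapped and the Cort-/- groups did not, with log2 fold changes of −0.15 ± 0.21 and −0.64 ± 0.19 (limma adjusted p = 0.920 and 0.127). Over both it was −0.40 ± 0.14 (limma adjusted p = 0.189).

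Ebf1 (chr11:44508138-44898918), a factor needed for the development of striatonigral neurons, was at 1.18, 1.19 and 1.35 RPKM in Cort+/+ CL and 0.943, 0.864 and 1.19 in Cort+/+ MCAO, and at 1.04, 0.950 and 0.919 in Cort-/- CL and 0.737, 0.838, 1.08, 0.876 and 1.06 in Cort-/- MCAO. Its MCAO libraries overlapped the CL libraries in both genotypes (log2 fold change −0.19 ± 0.10, limma adjusted p = 0.445). Chrm4 (chr2:91757594-91759033) encodes the M4 muscarinic receptor, which opposes D1 signalling. Its values were 14.8, 15.5 and 13.8 RPKM in Cort+/+ CL, 15.8, 12.5 and 12.0 in Cort+/+ MCAO, 16.7, 12.4 and 19.4 in Cort-/- CL and 10.9, 15.4, 9.38, 10.5 and 14.5 in Cort-/- MCAO. They overlapped in both genotypes too (log2 fold change −0.28 ± 0.13, limma adjusted p = 0.345).

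Of the indirect pathway genes, 5 of 6 fell over both genotypes, and the receptor genes Adora2a, Gpr6 and Drd2 had the largest changes. Drd2 (chr9:49251654-49319477), the D2 receptor gene, was at 14.3, 16.1 and 16.9 RPKM in Cort+/+ CL and 9.32, 6.66 and 12.8 in Cort+/+ MCAO, and at 15.6, 12.7 and 15.2 in Cort-/- CL and 5.67, 7.35, 10.2, 5.78 and 9.28 in Cort-/- MCAO. Within each genotype the groups did not overlap (log2 fold change over both −0.85 ± 0.16, limma adjusted p = 0.0115). Adora2a (chr10:75152560-75170628) encodes the A2a adenosine receptor. In Cort+/+ mice it stood at 15.9, 17.8 and 19.0 RPKM in CL and 9.74, 6.75 and 15.8 in MCAO, and in Cort-/- mice at 18.1, 16.0 and 16.6 in CL and 4.67, 7.78, 10.6, 6.84 and 8.75 in MCAO. All 8 MCAO libraries were below all 6 CL libraries, with a log2 fold change of −0.98 ± 0.19 (limma adjusted p = 0.0137), the largest fall of the 12 pathway genes.

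Gpr6 (chr10:40945973-40948304), a receptor gene without an accepted ligand whose promoter window above holds the cyclic AMP response element, was at 5.82, 5.63 and 5.75 RPKM in Cort+/+ CL and 3.58, 2.37 and 5.08 in Cort+/+ MCAO. In Cort-/- mice it was at 5.73, 5.74 and 6.16 RPKM in CL and 2.01, 2.82, 3.69, 2.39 and 3.45 in MCAO. The CL libraries lay close together, the MCAO libraries were all lower, and the log2 fold change was −0.87 ± 0.16 (limma adjusted p = 0.0104). Gpr52 (chr1:160402289-160407590), a gene of another receptor that raises cyclic AMP, was at 6.08, 7.51 and 7.97 RPKM in Cort+/+ CL, 4.82, 4.41 and 6.35 in Cort+/+ MCAO, 7.78, 6.54 and 6.47 in Cort-/- CL and 3.16, 4.74, 5.59, 3.31 and 4.99 in Cort-/- MCAO. One Cort+/+ MCAO library, replicate 4, lay within the CL range, and the log2 fold change was −0.58 ± 0.14 (limma adjusted p = 0.0391). The adjusted p of Gpr52 was 0.0516 to 0.110 in 9 of the 14 fits that left out 1 library, and it passed without Cort+/+ CL replicate 1, Cort+/+ MCAO replicate 4 or Cort-/- MCAO replicates 2, 3 or 5.

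Penk (chr4:4132722-4141856), the enkephalin precursor gene and the most abundant of the 35, was at 148, 144 and 167 RPKM in Cort+/+ CL and 114, 90.0 and 144 in Cort+/+ MCAO, and at 153, 154 and 146 in Cort-/- CL and 83.8, 97.2, 124, 83.5 and 112 in Cort-/- MCAO. Only Cort+/+ MCAO replicate 4 reached the CL range, at its lower end, and 11.2% of the exon bases of Penk overlap an antisense transcript. The log2 fold change was −0.52 ± 0.11 (limma adjusted p = 0.0227), and it missed the threshold, at 0.0520 to 0.0661, without Cort+/+ CL replicate 3, Cort+/+ MCAO replicates 2 or 3, or Cort-/- CL replicates 1 or 2. Six3 (chr17:85920640-85936730), a homeobox gene needed to form indirect pathway neurons, was at 2.85, 2.93 and 3.70 RPKM in Cort+/+ CL, 2.44, 1.86 and 3.15 in Cort+/+ MCAO, 3.03, 3.20 and 2.73 in Cort-/- CL and 1.90, 1.99, 2.55, 1.49 and 2.04 in Cort-/- MCAO. Its Cort-/- groups did not overlap and its Cort+/+ groups did, and it did not pass over both genotypes (log2 fold change −0.47 ± 0.13, limma adjusted p = 0.0719). When Cort+/+ MCAO replicate 4 or Cort-/- MCAO replicate 3 was left out, Six3 passed in limma at an adjusted p of 0.0256 to 0.0341.

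**Figure D2:**
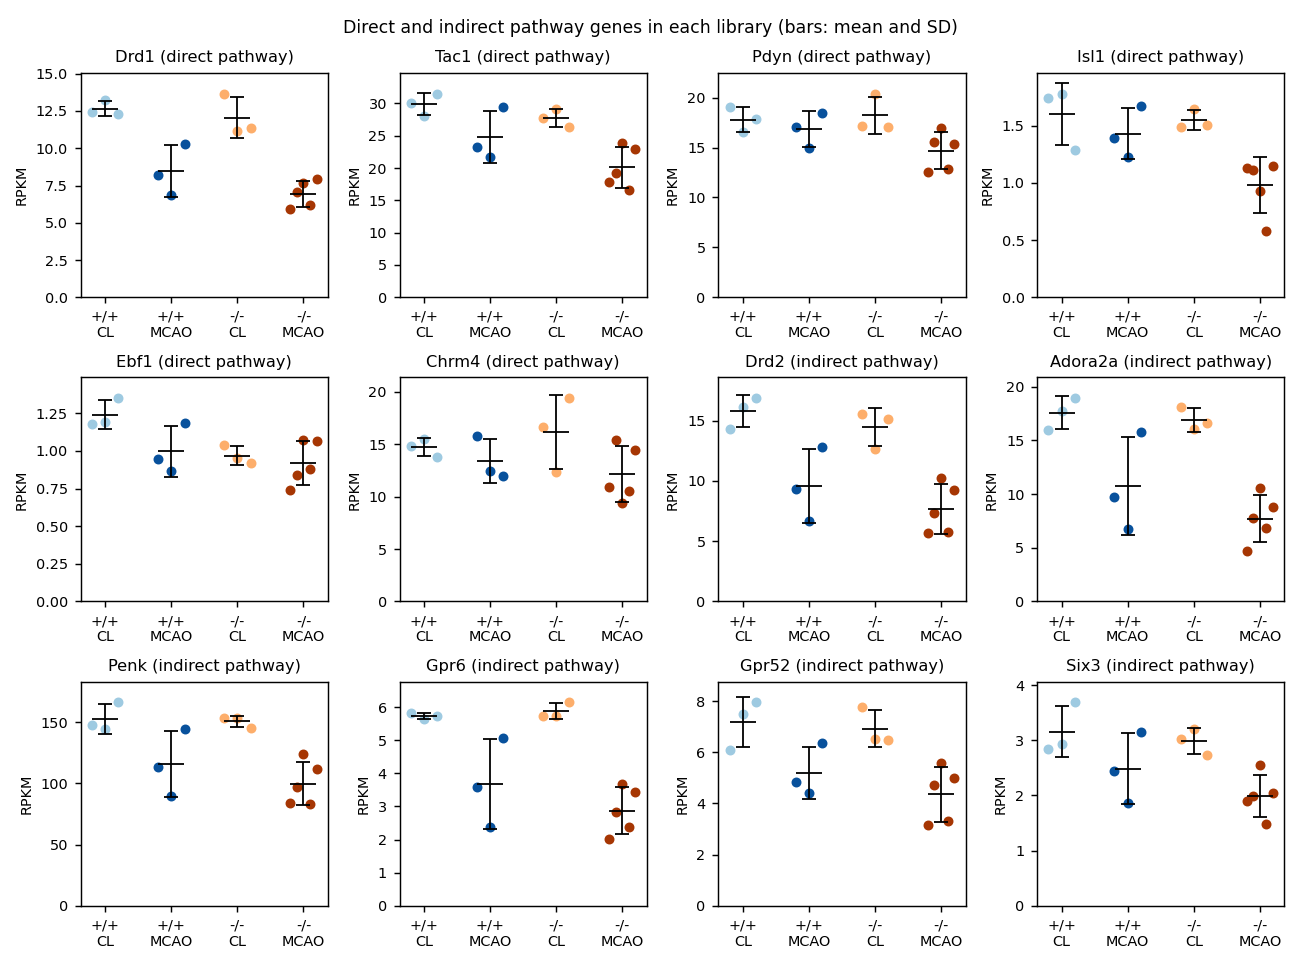
RPKM (y axis, from 0) of the 6 direct and 6 indirect pathway genes in each library of the 4 groups, with bars for the mean and SD. In Cort-/- mice the MCAO points lie below the CL points for all 12 genes except Ebf1 and Chrm4, and the highest Cort+/+ MCAO point of most genes is replicate 4.

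The list median of the direct pathway genes lay nearer to 0 than that of the indirect pathway genes. Over both genotypes 2 of 6 direct genes passed with a list median log2 fold change of −0.33, and 5 of 6 indirect genes passed with a median of −0.71. The medians were −0.21 and −0.58 in Cort+/+ mice and −0.44 and −0.82 in Cort-/- mice. For each library the mean log2 deviation from CL was taken over each list, and the indirect mean was subtracted from the direct mean. This difference was 0.15, 0.03 and −0.15 in the Cort+/+ CL libraries and −0.04, 0.00 and 0.01 in the Cort-/- CL libraries. In MCAO it was 0.36, 0.57 and 0.06 in Cort+/+ mice, and 0.62, 0.43, 0.05, 0.41 and 0.36 in Cort-/- mice. All 5 Cort-/- MCAO libraries lay above the 3 Cort-/- CL libraries, whereas Cort+/+ MCAO replicate 4 lay within the range of Cort+/+ CL. The difference was higher in MCAO by 0.32 in Cort+/+ mice (0.20 without MCAO replicate 3, 0.46 without MCAO replicate 4) and by 0.39 in Cort-/- mice (0.32 to 0.47 with 1 library left out). It describes 2 chosen lists of 6 genes in RNA of whole hemispheres, not the 2 types of neuron, and no test was made on it.

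For the defining receptors of the pathways, Drd1 and Drd2, no difference between MCAO and CL was found in their ratio. The ratio of Drd1 to Drd2, both in RPKM, was 0.869, 0.819 and 0.728 in Cort+/+ CL and 0.878, 1.03 and 0.806 in Cort+/+ MCAO. In Cort-/- mice it was 0.879, 0.882 and 0.749 in CL and 1.04, 0.958, 0.749, 1.07 and 0.858 in MCAO. The ranges overlapped in both genotypes. On the log2 scale the ratio was higher in MCAO by 0.16 in Cort+/+ mice (exact two-sided permutation test, p = 0.4, where 3 against 3 libraries cannot go below 0.1) and by 0.15 in Cort-/- mice (exact p = 0.321, smallest possible 0.0357). Between genotypes it differed by 0.05 in CL and 0.04 in MCAO (exact p = 0.5 and 0.786), and over the 4 comparisons the adjusted p-values were 0.667, 0.667, 0.667 and 0.786. For the neuropeptide genes, the ratio of Tac1 to Penk averaged 0.196 ± 0.00749 (SD, n = 3) in Cort+/+ CL and 0.217 ± 0.0217 (n = 3) in Cort+/+ MCAO, and 0.184 ± 0.00541 (n = 3) in Cort-/- CL and 0.202 ± 0.00806 (n = 5) in Cort-/- MCAO. The ratio of Pdyn to Penk averaged 0.117 ± 0.0112 and 0.148 ± 0.0193 in Cort+/+ CL and MCAO, and 0.121 ± 0.0108 and 0.148 ± 0.0102 in Cort-/- CL and MCAO. In Cort-/- mice the lowest MCAO ratio of Pdyn to Penk, 0.137, was above the highest CL ratio, 0.133, and the same held for Tac1 to Penk, at 0.193 and 0.190. In Cort+/+ mice both ratios overlapped, with a lowest MCAO and a highest CL ratio of 0.1282 and 0.1290 for Pdyn to Penk. For Tac1 to Penk these were 0.2037 and 0.2039. The ratio of Drd1 to Adora2a overlapped between CL and MCAO in both genotypes.

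**Figure D3:**
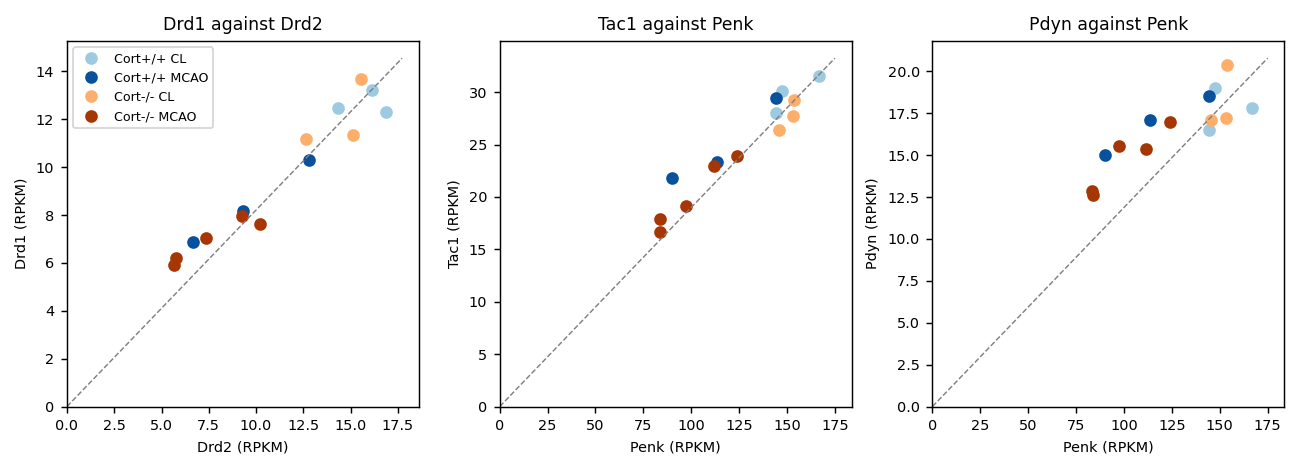
RPKM of Drd1 against Drd2, of Tac1 against Penk and of Pdyn against Penk in each of the 14 libraries, with the dashed line at the mean ratio of the 6 CL libraries. MCAO points of Drd1 against Drd2 lie on both sides of the line, most of them above it, with ratios of 0.749 to 1.07. Those of Pdyn against Penk all lie above the line, with ratios of 0.128 to 0.167.

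Signalling genes formed the largest list, and 9 of its 11 members fell over both genotypes, with a list median log2 fold change of −0.56. Ppp1r1b (chr11:98239169-98248624) encodes DARPP-32, an inhibitor of protein phosphatase when phosphorylated by the cyclic AMP-dependent kinase. It was at 167, 117 and 139 RPKM in Cort+/+ CL and 82.3, 71.8 and 114 in Cort+/+ MCAO, and at 126, 144 and 121 in Cort-/- CL and 57.8, 76.6, 81.9, 87.3 and 84.9 in Cort-/- MCAO. Antisense transcripts share up to 14.6% of its exon bases. No MCAO library reached the lowest CL library, and the log2 fold change was −0.71 ± 0.12 (limma adjusted p = 0.00705). Rgs9, whose protein speeds the shut-off of G proteins at dopamine receptors, was at 14.4, 15.3 and 14.6 RPKM in Cort+/+ CL, 8.13, 7.08 and 12.0 in Cort+/+ MCAO, 14.6, 13.2 and 14.6 in Cort-/- CL and 5.31, 7.52, 9.28, 5.84 and 8.48 in Cort-/- MCAO. It fell most of the signalling genes (log2 fold change −0.86 ± 0.14, limma adjusted p = 0.00526), with no overlap of MCAO with CL.

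Adcy5 and Gng7 encode adenylyl cyclase 5 and the gamma subunit that joins Golf. Adcy5 was at 46.1, 51.5 and 48.6 RPKM in Cort+/+ CL, 37.4, 33.2 and 42.6 in Cort+/+ MCAO, 53.5, 48.0 and 55.0 in Cort-/- CL and 28.1, 33.8, 38.4, 28.9 and 38.2 in Cort-/- MCAO. Gng7 was at 70.7, 71.8 and 71.7 RPKM in Cort+/+ CL, 54.3, 43.3 and 60.3 in Cort+/+ MCAO, 73.0, 68.4 and 69.1 in Cort-/- CL and 38.1, 43.9, 49.2, 40.8 and 50.4 in Cort-/- MCAO. Neither gene had an MCAO library within the CL range, and they fell by 0.51 ± 0.08 and 0.56 ± 0.08 on the log2 scale (limma adjusted p = 0.00577 and 0.00265). Gnal, the gene of the Golf alpha subunit, ranged over 24.3 to 28.8 RPKM in CL and 19.1 to 25.7 in MCAO and did not pass (log2 fold change −0.25 ± 0.07, limma adjusted p = 0.0657). Its adjusted p was 0.0323 to 0.0471 without Cort+/+ CL replicate 1, Cort+/+ MCAO replicate 4 or Cort-/- MCAO replicate 3.

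Rasd2, the gene of the small GTPase Rhes, was at 54.1, 48.3 and 50.7 RPKM in Cort+/+ CL, 33.9, 28.5 and 41.2 in Cort+/+ MCAO, 51.9, 45.5 and 52.0 in Cort-/- CL and 25.2, 30.4, 35.1, 28.6 and 36.4 in Cort-/- MCAO. It fell by 0.63 ± 0.09 on the log2 scale without overlap of MCAO and CL (limma adjusted p = 0.00385). Pde1b, a calcium-dependent phosphodiesterase gene, was at 83.9, 84.5 and 86.4 RPKM in Cort+/+ CL, 66.3, 57.6 and 81.3 in Cort+/+ MCAO, 83.6, 83.2 and 84.6 in Cort-/- CL and 50.3, 57.5, 66.2, 58.8 and 64.7 in Cort-/- MCAO. Its CL libraries were within a narrow range and all MCAO libraries were lower (log2 fold change −0.41 ± 0.08, limma adjusted p = 0.00923). Since 35.4% of the exon bases of Pde1b overlap exons of Ppp1r1a on the other strand and the strand setting of the counting is not given in the sources used here, its level is uncertain. Arpp21, the gene of a cyclic AMP-regulated phosphoprotein, was at 44.0, 44.3 and 52.4 RPKM in Cort+/+ CL, 35.4, 33.6 and 41.0 in Cort+/+ MCAO, 46.7, 45.2 and 41.9 in Cort-/- CL and 30.2, 35.7, 38.5, 34.1 and 34.3 in Cort-/- MCAO. It changed least of the signalling genes that passed (log2 fold change −0.36 ± 0.06, limma adjusted p = 0.00816), and no MCAO library reached the CL range.

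Of the remaining signalling genes, Pde10a, the phosphodiesterase gene most characteristic of spiny neurons, fell by 0.76 ± 0.17 on the log2 scale (limma adjusted p = 0.0242). Rasgrp2, which encodes an exchange factor for Rap GTPases, fell by 0.58 ± 0.12 on that scale (limma adjusted p = 0.0190). Pde10a ranged over 27.8 to 33.0 RPKM in the 6 CL libraries and 11.5 to 27.98 in the 8 MCAO libraries, and Rasgrp2 over 9.51 to 12.3 and 5.74 to 10.4. Both were lower in MCAO without overlap within each genotype, and overlapped when the genotypes were pooled. The Pde10a call was lost, at adjusted p of 0.0548 to 0.0675, without Cort+/+ CL replicates 2 or 3, Cort+/+ MCAO replicates 2 or 3, or Cort-/- CL replicates 1 or 3. The Rasgrp2 call was lost, at 0.0528 to 0.0578, without Cort+/+ CL replicate 3 or Cort-/- CL replicates 1 or 3. Ptpn5, the gene of the striatal-enriched phosphatase STEP, ranged over 63.2 to 78.9 RPKM in CL and 48.6 to 68.0 in MCAO, had a log2 fold change of −0.27 ± 0.08 and did not pass (limma adjusted p = 0.0995).

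All 5 transcription factor genes fell over both genotypes, with a list median log2 fold change of −0.42 and a narrow range. Rarb, the retinoic acid receptor beta gene, was at 5.38, 5.98 and 5.71 RPKM in Cort+/+ CL, 4.08, 3.68 and 4.73 in Cort+/+ MCAO, 6.20, 5.36 and 5.10 in Cort-/- CL and 3.02, 3.54, 3.97, 2.85 and 3.81 in Cort-/- MCAO. It fell most of the 5 (log2 fold change −0.57 ± 0.09, limma adjusted p = 0.00417), though 31.2% of its exon bases overlap exons of Top2b on the other strand, so its level is uncertain too. Foxp1, a forkhead factor gene of spiny neurons, was at 12.9, 12.3 and 14.8 RPKM in Cort+/+ CL, 9.02, 9.52 and 11.4 in Cort+/+ MCAO, 13.9, 12.7 and 12.5 in Cort-/- CL and 8.21, 9.94, 10.6, 10.2 and 9.34 in Cort-/- MCAO. Its groups did not overlap (log2 fold change −0.42 ± 0.07, limma adjusted p = 0.00650). Meis2, a homeobox gene, was at 33.1, 31.9 and 37.4 RPKM in Cort+/+ CL, 26.2, 24.9 and 28.7 in Cort+/+ MCAO, 36.0, 34.0 and 32.7 in Cort-/- CL and 22.2, 26.0, 28.8, 21.2 and 25.8 in Cort-/- MCAO. It too had no MCAO library within the CL range (log2 fold change −0.41 ± 0.07, limma adjusted p = 0.00650). Bcl11b, which encodes the spiny neuron differentiation factor CTIP2 that deep cortical neurons also make, and Foxp2 fell by 0.42 ± 0.08 and 0.40 ± 0.08 on the log2 scale (limma adjusted p = 0.00988 and 0.0210). Bcl11b ranged over 11.2 to 14.3 RPKM in CL and 8.53 to 11.4 in MCAO, and Foxp2 over 2.34 to 2.84 and 1.50 to 2.27. The Foxp2 call was lost, at adjusted p of 0.0615 to 0.0637, without Cort+/+ CL replicate 3, Cort+/+ MCAO replicates 2 or 3, or Cort-/- CL replicate 1.

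The 6 genes of membrane, cytoskeletal and other proteins all fell over both genotypes, and their list median of −0.87 was the lowest of the lists. Lrrc10b (chr19:10432735-10434837), a leucine-rich repeat protein gene, was at 23.3, 20.5 and 19.8 RPKM in Cort+/+ CL, 10.6, 8.65 and 15.8 in Cort+/+ MCAO, 21.4, 17.9 and 24.1 in Cort-/- CL and 6.33, 8.38, 10.8, 8.08 and 11.2 in Cort-/- MCAO. It fell most of all 35 genes, by 1.07 ± 0.15 on the log2 scale, and no MCAO library overlapped CL (limma adjusted p = 0.00282). Scn4b (chr9:45049595-45065452), the gene of the sodium channel beta 4 subunit, was at 62.9, 58.5 and 57.6 RPKM in Cort+/+ CL, 29.3, 22.6 and 46.2 in Cort+/+ MCAO, 59.8, 47.7 and 51.0 in Cort-/- CL and 20.8, 26.6, 33.7, 28.1 and 28.2 in Cort-/- MCAO. Its log2 fold change was −0.94 ± 0.14 (limma adjusted p = 0.00405), and −0.93 ± 0.21 and −0.95 ± 0.19 in Cort+/+ and Cort-/- mice alone (limma adjusted p = 0.209 and 0.0277).

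Syndig1l, a gene of a striatal membrane protein related to the synapse differentiation protein SynDIG1, was at 17.2, 18.6 and 20.4 RPKM in Cort+/+ CL, 10.9, 8.60 and 15.6 in Cort+/+ MCAO, 19.2, 14.4 and 18.0 in Cort-/- CL and 6.91, 8.98, 11.0, 9.01 and 10.2 in Cort-/- MCAO. The groups did not overlap within a genotype (log2 fold change −0.81 ± 0.13, limma adjusted p = 0.00617). On the log2 scale Sh3rf2, an SH3 domain gene, fell by 1.03 ± 0.19, Actn2, the alpha-actinin 2 gene of dendritic spines, by 0.53 ± 0.10 and Kcnip2, the gene of a partner of A-type potassium channels, by 0.31 ± 0.07 (limma adjusted p = 0.00943, 0.0144 and 0.0230). Sh3rf2 ranged over 1.61 to 2.13 RPKM in CL and 0.487 to 1.47 in MCAO, Actn2 over 8.05 to 9.05 and 4.38 to 7.74, and Kcnip2 over 49.5 to 54.8 and 35.9 to 49.3. Kcnip2 missed the threshold of limma, at an adjusted p of 0.0517 to 0.0641, without Cort-/- CL replicates 1 or 3.

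**Figure D4:**
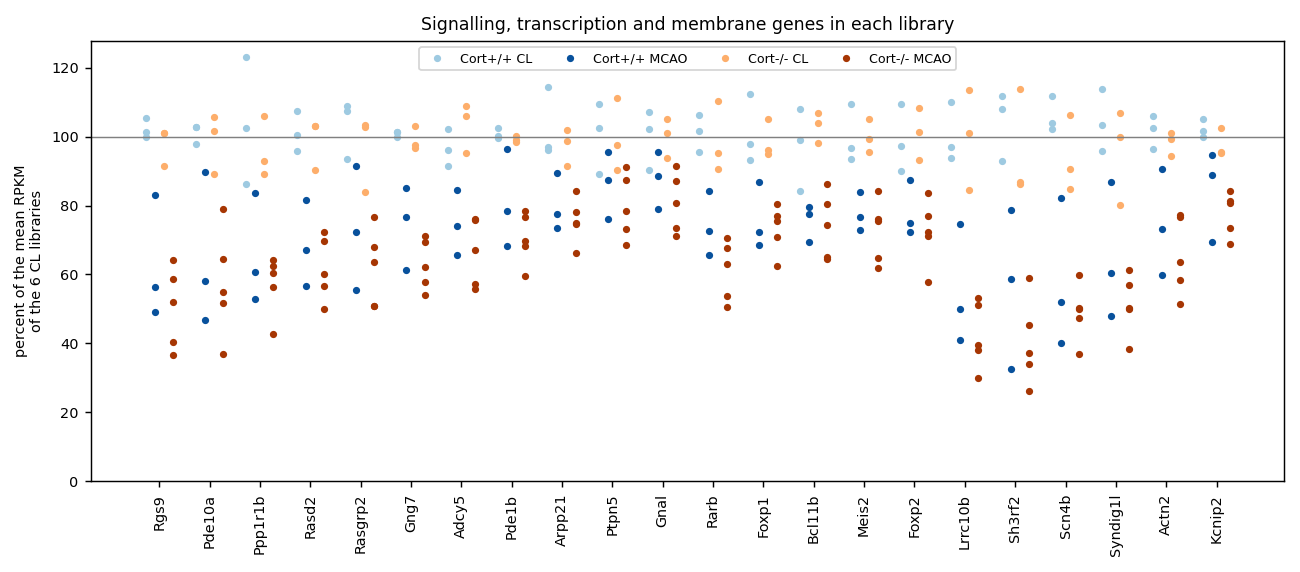
Level of the 22 signalling, transcription and membrane genes in each library as a percent of the mean RPKM of the 6 CL libraries (y axis, from 0). MCAO points of Lrrc10b, Sh3rf2, Scn4b and Rgs9 spread lowest, and Gnal, Ptpn5 and Kcnip2 stay nearest to 100%.

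No striatal gene differed between the genotypes past the threshold. In CL hemispheres the Cort-/- mean was 78.1% (Ebf1) to 133% (Drd3) of the Cort+/+ mean, with a median log2 difference of −0.04 over the 35 genes. Limma called none of the 35 there, against 0.0152% of all tested genes in either direction, and none had an unadjusted p under 0.05 (voom called none either, with 1 at an unadjusted p under 0.05). Ebf1 was the gene whose 3 Cort-/- CL libraries all lay below the 3 Cort+/+ CL libraries, 1 of 35 against 2.35% of all tested genes (log2 difference −0.33 ± 0.15, limma adjusted p = 1.00). The direction in CL changed with the scaling, since 26 of the 35 genes were lower in Cort-/- mice in RPKM and 13 of 35 once libraries were rescaled to TPM.

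In MCAO hemispheres all 35 genes had a lower mean in Cort-/- than in Cort+/+ mice, from 64.2% (Drd3) to 98.2% (Bcl11b), with a median log2 difference of −0.20 (33 of 35 were lower once rescaled to TPM). This median rested on single libraries, being −0.06 without Cort+/+ MCAO replicate 4, where 30 genes were lower, and −0.37 without Cort+/+ MCAO replicate 3. None passed in limma, against 0.0174% of all tested genes, and 4 had an unadjusted p under 0.05 (Isl1, Tac1, Rarb and Gng7), while voom called none, with 6 at an unadjusted p under 0.05. Those 4 became 0 without Cort+/+ MCAO replicate 4, 21 without its replicate 3, 2 without its replicate 2, 1 without Cort-/- MCAO replicate 1 or 4, and 12 without Cort-/- MCAO replicate 3. Tac1 differed by −0.31 ± 0.12 and Isl1 by −0.52 ± 0.19 on the log2 scale (limma adjusted p = 1.00 and 1.00). Only Isl1 and Drd3 had all 5 Cort-/- MCAO libraries below the 3 Cort+/+ MCAO libraries, 2 of 35 genes against 1.56% of all tested genes. The log2 change with MCAO was more negative in Cort-/- mice for 34 of the 35 genes, with a median interaction of −0.18 on the log2 scale, and Ebf1 was the exception. Without Cort+/+ MCAO replicate 4 this median was −0.04 and 23 genes were more negative, without Cort+/+ MCAO replicate 3 it was −0.32, and without Cort-/- MCAO replicate 1 it was −0.12. The interaction passed for none of the 35 in limma, against 0.00217% of all tested genes, and none had an unadjusted p under 0.05 (voom: none, with 1 at an unadjusted p under 0.05). These comparisons share their MCAO libraries, and the 35 genes vary together among libraries, so that the agreement in sign is not 35 separate observations.

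Drd3, the gene of the D3 dopamine receptor of the ventral striatum, was the least abundant of the 35, with 12 to 43 reads per library. It was at 0.499, 0.473 and 0.360 RPKM in Cort+/+ CL and 0.682, 0.515 and 0.604 in Cort+/+ MCAO, and at 0.661, 0.334 and 0.776 in Cort-/- CL and 0.362, 0.417, 0.508, 0.168 and 0.472 in Cort-/- MCAO. The Cort+/+ MCAO libraries were all above Cort+/+ CL, whereas the Cort-/- groups overlapped, and no comparison of Drd3 passed. In limma its log2 fold change was 0.37 ± 0.32 in the wild type, at an adjusted p of 0.887, against −0.50 ± 0.29 without cortistatin, at an adjusted p of 0.525.

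The MCAO libraries differed among themselves in the striatal genes far more than the CL libraries. The mean log2 deviation of the 35 genes from CL was −0.10 to 0.06 in the 6 CL libraries. In Cort+/+ MCAO replicates 2, 3 and 4 it was −0.44, −0.71 and −0.15, and in Cort-/- MCAO replicates 1 to 5 it was −0.92, −0.63, −0.42, −0.85 and −0.50. Cort+/+ MCAO replicate 3 was the lowest of its group for 32 of the 35 genes and replicate 4 the highest for 32. In Cort-/- MCAO, replicate 1 was lowest for 24 genes and replicate 4 for 10, and replicate 3 was highest for 28. The ranges of the genotypes overlapped between −0.42 and −0.71.

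Markers of other cells moved with these libraries. Over the 7 microglia and macrophage genes the mean log2 deviation was 1.04, 1.15 and 0.55 in Cort+/+ MCAO replicates 2 to 4 and 1.39, 0.92, 0.69, 1.28 and 1.11 in Cort-/- MCAO replicates 1 to 5. The libraries with the lowest striatal level in each genotype thus had the highest microglial level, and those with the highest striatal level the lowest. All 7 microglia and macrophage genes were higher over both genotypes and 6 rose past the threshold (7 with voom), with a summed level of 66.1 to 79.9 RPKM in the 6 CL libraries and 104 to 196 in the 8 MCAO libraries. Of the 6 astrocyte genes 3 rose (Gfap, Aqp4 and Aldh1l1) and 2 were lower by sign, of which voom called Slc1a2, and of 5 endothelial genes 2 rose (Cdh5 and Cldn5, and with voom Kdr too). Their part in the level of the striatal genes was not tested.

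Few markers of other neurons passed in either tool. None of the 3 genes of GABA synthesis and transport (Gad1, Gad2 and Slc32a1), which spiny neurons share with interneurons, the 8 cortical glutamatergic, the 9 pan-neuronal, the 6 interneuron, the 4 cholinergic, the 6 hippocampal, the 6 thalamic or the 5 midbrain dopamine genes passed in limma over both genotypes, and 1, 2, 3, 0, 1, 2, 2 and 0 of them, in that order, had an unadjusted p under 0.05. Voom called 1 of them, Snap25, which was lower. List medians were −0.10 for the GABA, −0.09 for the cortical, −0.11 for the pan-neuronal and −0.05 for the interneuron genes, against −0.52 for the 35 striatal genes. The GABA genes summed to 185 to 195 RPKM in the 6 CL libraries and to 153 to 192 in the 8 MCAO libraries. None of the 6 oligodendrocyte, 6 mural, 5 choroid and ependymal or 4 neutrophil genes passed, and 3, 2, 0 and 0 had an unadjusted p under 0.05, while voom called Mag and Vtn, both higher.

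**Figure D5:**
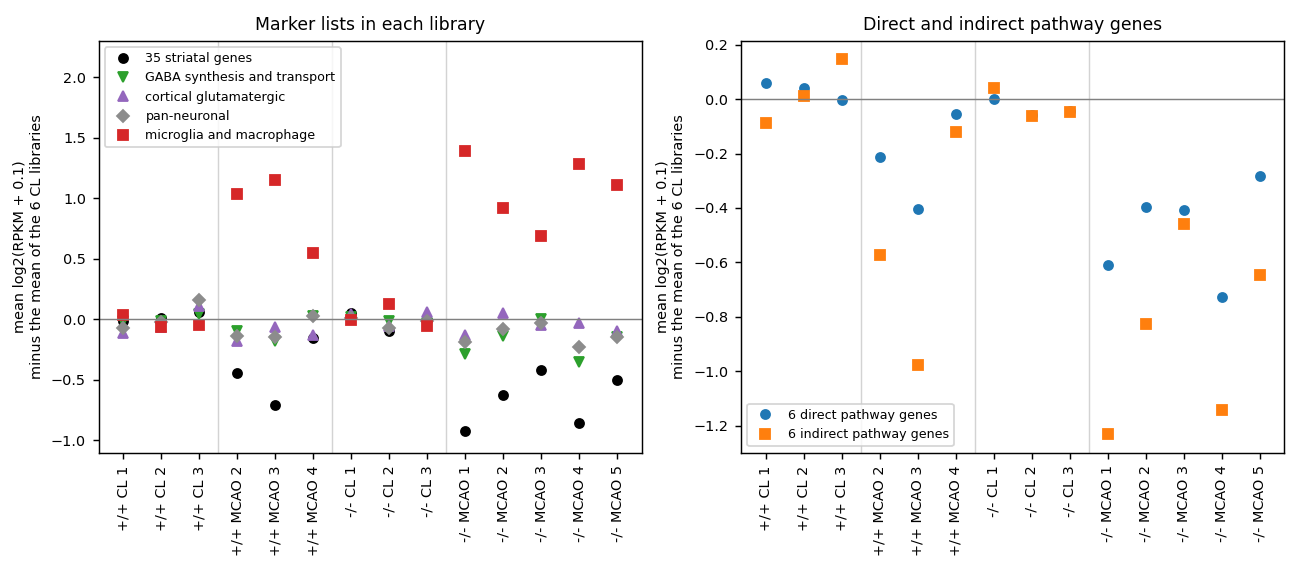
Mean log2(RPKM + 0.1) of gene lists in each library minus the mean of the 6 CL libraries (y axis), with the 35 striatal genes and 4 marker lists at left and the 6 direct and 6 indirect pathway genes at right. Striatal genes lie at −0.92 to −0.15 in MCAO while the GABA, cortical and pan-neuronal lists stay nearer 0, and the indirect genes lie below the direct genes in all 8 MCAO libraries.

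Other genes linked to spiny neurons and to dopamine signalling were read from lists that hold none of the 35. These lists too were chosen with earlier results of these data known, so they are no independent check. Of 11 further striatal genes, 5 fell over both genotypes and none rose, with a list median log2 fold change of −0.41. Hpca and Kcnab1 fell by 0.46 ± 0.06 and 0.43 ± 0.06 on the log2 scale (limma adjusted p = 0.00283 and 0.00341), and hippocampal and cortical neurons make both of them as well. Sp9, a zinc finger factor gene of developing striatal neurons, fell by 0.32 ± 0.07 on that scale (limma adjusted p = 0.0271). Of 19 genes of the shared dopamine and cyclic AMP machinery, which many neurons use, 2 fell and none rose, with a list median of −0.10. They were Ppp3ca and Ppp3r1, the calcineurin subunits that dephosphorylate DARPP-32, at −0.39 ± 0.06 and −0.32 ± 0.05 (limma adjusted p = 0.00405 and 0.00586).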

How the data were processed

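PolyA-selected RNA of 14 brain hemispheres was sequenced with a stranded kit. The authors aligned and counted the reads on GRCm39 genes with reanalyzerGSE and deposited RPKM values per gene, with replicates kept apart. The aligner, the gene lengths and the strand setting of the counting are not given in the sources used here. All 495656 values above 0 came back as whole reads within 0.01 reads, which gave the depth of each library.

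Log2(RPKM + 0.1) was fitted with limma 3.58.1 (R 4.3.3) in 1 model of the 4 groups, with a trended prior, over the 46102 genes above 0 in at least 2 libraries, and p-values were Benjamini-Hochberg adjusted over all of them. Fold changes are on this scale, which understates those of low genes. The authors had used edgeR on counts, whereas limma was used here because the values are RPKM. The genes that pass differ from those of the study, and the cause of the difference was not tested. The study lists Drd1, Rgs9, Rasd2, Gng7, Ppp1r1b, Scn4b, Syndig1l, Lrrc10b and Foxp1 as lower after MCAO in both genotypes. The log2 ratio of Drd1 to Drd2 was compared by exact permutation (scipy 1.17.1). The code was tested on simulated data.

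The 35 genes and all lists were chosen with earlier results of these data known, and p-values were not adjusted within a list. Values in every library are given for the 12 pathway genes, Ppp1r1b and the 12 further genes with the lowest p over both genotypes. Of the other 10 genes, Drd3 is also given by library, chosen after its values were seen, and 9 are summarised. Of striatal and dopamine genes outside the 35, at most 6 with the lowest p are named. An item withheld from this text is not reported here. Whole reads were also fitted with voom. Gene positions are GRCm39, with 46792 of 46904 identifiers matched, and promoter windows are RefSeq on GRCm38.p6. In each of 19 pairs of replicates the reads differed by more than counting error (chi-square of 5.21 to 23.0 for each degree of freedom). P-values of the main model rest on the spread between these hemispheres, taken as independent. Which CL and MCAO hemispheres came from the same mouse is not given, so the p-values take no account of such pairs.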

Additional observations from a re-analysis of the deposited data

Results flagged for a closer look

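Drd3 is listed because its direction differed between the genotypes. Its mean in MCAO was 135% of that in CL in Cort+/+ mice and 65.3% in Cort-/- mice, and all 3 Cort+/+ MCAO libraries were above Cort+/+ CL. The difference between the genotypes in the log2 change was −0.87 (limma, unadjusted p = 0.0641 and adjusted p = 1.00), so it did not pass. Each library held 12 to 43 reads of this gene.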

How the results depend on the processing

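Of the 105 results for single genes in the 3 comparisons of MCAO with CL, 2397 of 2686 values under alternatives kept their direction and their side of the threshold, 215 lost a call, 70 gained one and 4 changed sign. Those 4 were Drd3 over both genotypes, which was 0.066 with the replicate block and −0.22 to 0.035 with 1 library left out (0.035 and 0.034 when Cort-/- CL replicate 3 or MCAO replicate 4 was omitted), and Pdyn in Cort+/+ mice, −0.15 to 0.0014 with 1 library left out (above 0 without MCAO replicate 3). In Cort+/+ mice 3 genes passed with voom on whole reads and 0 to 3 with 1 library left out. In Cort-/- mice 0 passed in a model of the compared groups alone (fewer libraries set the spread), 0 to 26 with 1 library left out, and 27 with voom, quantile normalization or a filter at a mean of 0.5 RPKM (fewer genes were tested with the filter). Over both genotypes 20 to 29 passed with 1 library left out and 27 to 30 with the other settings except the replicate block.

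With the replicate number as a block, 0 genes passed in Cort-/- mice (32 at an unadjusted p under 0.05) and 9 over both genotypes. The cause was not tested. Deviations of same-numbered CL and MCAO libraries from their group means had correlations of −0.168 to 0.238. With so few libraries in a group, this cannot tell whether the numbers pair hemispheres. With genotype and number together as a random block, 18 genes passed in Cort-/- mice and 27 over both.

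The log2 ratio of Drd1 to Drd2 between genotypes was −0.017 to 0.13 in CL and −0.036 to 0.14 in MCAO with 1 library left out. It was −0.017 without Cort+/+ CL replicate 3, −0.036 when replicate 4 of Cort+/+ MCAO was omitted and also below 0 when replicate 4 of Cort-/- MCAO was. The voom fit with a filter and the ratio from recovered reads were added after seeing the data. Counting error weighs most on Drd3, with 12 to 43 reads per library, where each of the other 34 genes had at least 61.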
